A study of Homo sapiens with 4 samples.

Results

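The kinetochore and spindle checkpoint genes described here are 43 of the 43317 gene names on an Agilent expression array. They form a list of names with no threshold on signal, drawn up with earlier results of these data known, and each was read from its brightest probe over 4 arrays. RNA came from HCT116, an established colorectal cancer line, and from A549, an established lung cancer line. Each line was transfected, with the lipid reagent Dharmafect1, with the microRNA miR-891b or with NC1, the negative control. The 4 groups, each line with miR-891b and each with NC1, had 1 array each, and every group had therefore received the reagent. The dose and the time after transfection are not given in the sources used here. The wider study concerned PSAT1, an enzyme of serine synthesis, and the release of extracellular vesicles. With 1 array per group there was no spread between cultures to test against, so differences within a line carry no p-value and were called by size, at 2-fold or more, which is 1 on the log2 scale.

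The kinetochore is the protein assembly that joins a chromosome's centromere to the spindle microtubules. Nucleosomes with the histone CENPA mark the centromere, a constitutive layer of CENP proteins sits on them through the cell cycle, and an outer layer holds the microtubules. The spindle checkpoint delays chromosome separation while kinetochores are unattached, and the chromosomal passenger complex releases wrong attachments. Many of these genes are transcribed mainly in late phases of the cell cycle, so a bulk RNA signal cannot tell fewer dividing cells from less RNA per cell.

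The mature sequence of miR-891b in RefSeq (GRCh38.p14, chrX:146001100-146001121, minus strand) is shown with its seed, bases 2 to 8, in capitals, because the seed is the part by which a microRNA pairs with its targets.
hsa-miR-891b: uGCAACUUaccugagucauuga
The 7-base match of this seed, AAGTTGC on the transcript's strand, was looked for in the 60-base probes of the members. It was found in 1 of their 57 probes (1.75%), that of HJURP, against 229 of all 58201 gene probes (0.393%). The last 30 bases of that probe are shown with the match in capitals.
HJURP probe: gaaattatgtgaataAAGTTGCtcaattag
The probe lies at chr2:234746029-234746088 on hg19, minus strand. A probe covers a small stretch of a transcript, and the match was searched for nowhere else in the transcripts.

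The signal of each of the 43 members was well above background on each of the 4 arrays, and no gene spot was saturated. Of 58201 gene probes, 44.7% to 50.3% were well above background per array. All 6 A549 markers were higher and all 4 HCT116 markers lower in A549 on both pairs of arrays, but some differed with miR-891b. In HCT116, the A549 marker AKR1B10 was at -2.29 with NC1 and 2.18 with miR-891b, and the gap between the lines for the HCT116 marker CLDN3 was -3.13 with NC1 and -1.21 with miR-891b. Of 6 fibroblast markers, DCN, COL1A2 and COL3A1 were not well above background on any array, COL1A1 and PDGFRB were on all 4, and LUM was only in A549. There LUM was at 1.03 with NC1 and 3.17 with miR-891b, and COL1A1 at 0.60 and 0.01. The part of these markers in the results was not tested. Of 3 leukocyte markers on the array, 2 were well above background in HCT116 and 1 in A549. In areas of stray signal, where at least 10% of nearby dim spots were well above background, lay 10.5% of gene spots on HCT116 miR-891b and at most 2.20% on the other arrays. The brightest probe of 7 members lay in such an area on some array, and on an A549 array this held for CENPE only. On HCT116 miR-891b these were CENPI, CENPE, CENPQ (10.7% of nearby dim spots lit) and BUB3 (21.8%), and on HCT116 NC1 they were MIS12 (15.8%), CENPF (19.2%) and BIRC5. Without probes in such areas, 39 members were left, and their median difference was 0.15 in HCT116 and -1.62 in A549. Levels below are log2 processed signals relative to the array's 75th percentile, and they compare one probe across arrays, never one gene with another.

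In A549, the kinetochore and checkpoint genes were lower after miR-891b, and in HCT116 their level differed little from NC1. In A549, 33 of 43 were at least 2-fold lower, where 5.57% of the 21337 genes measured were. None was at least 2-fold higher, where 4.01% of all genes were. The median difference of the members, miR-891b minus NC1, was -1.57 (2.97-fold lower), against -0.06 over all genes. Below 0 were 42 of 43 members, where 55.6% of all genes were. In HCT116, none was 2-fold lower, where 0.843% of the 19104 genes measured were, and 1 was 2-fold higher, where 1.16% were. The median there was 0.12, against -0.04 over all genes. Above 0 were 30 of 43 members, where 44.5% of all genes were. Within 1.5-fold of NC1 lay 42 of 43 members, and the share of all genes in that range was not counted. Whether the lines differ was not tested.

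**Figure D1:**
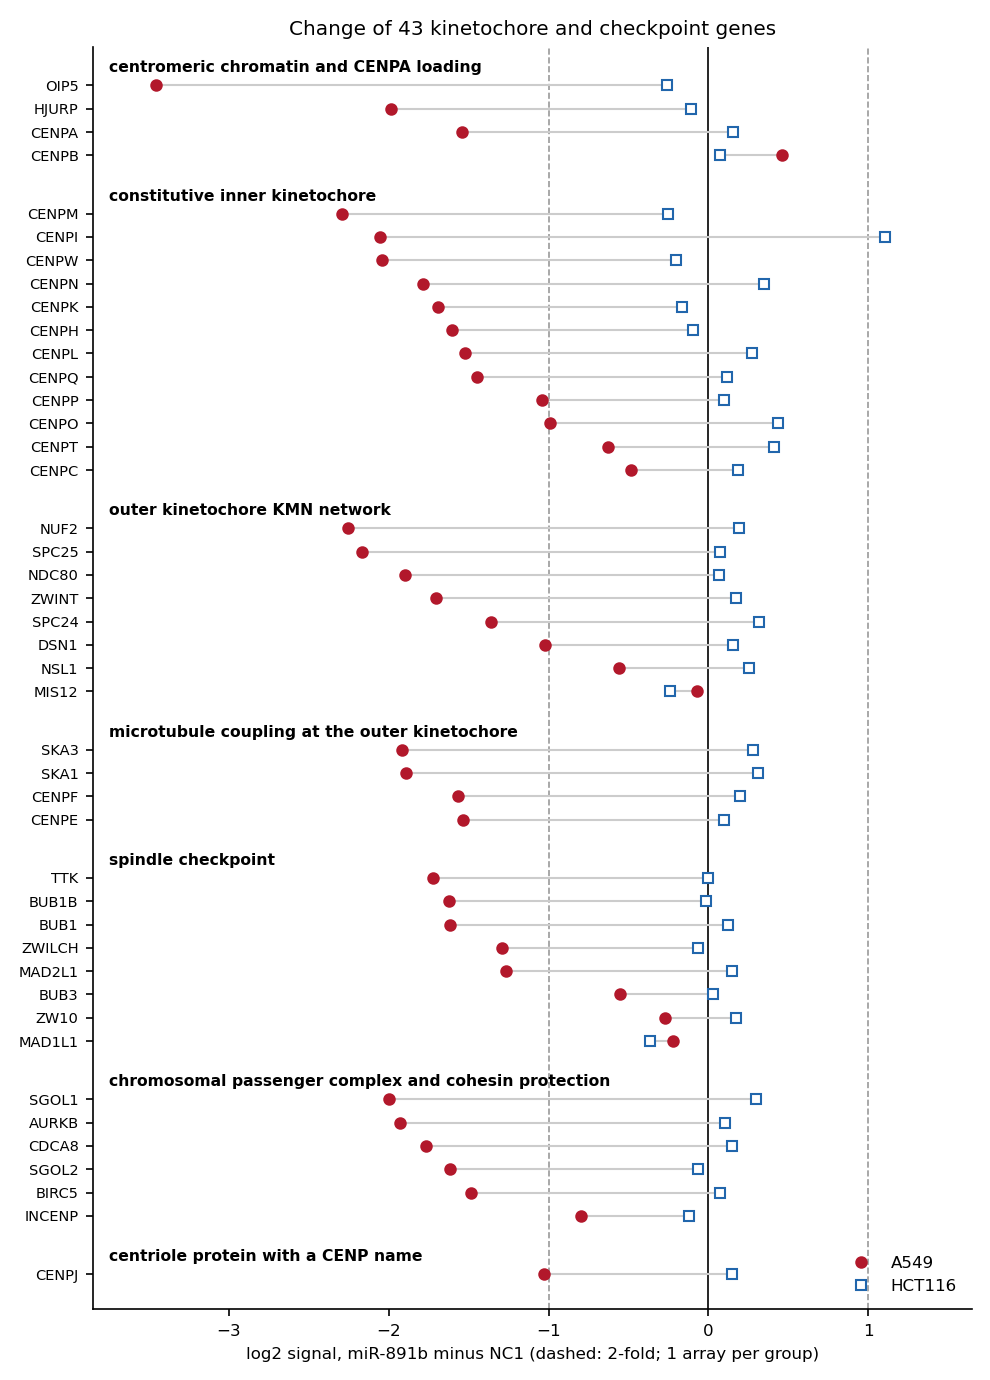
Log2 signal of miR-891b minus NC1 for each of the 43 genes, grouped by role, with A549 as filled circles and HCT116 as open squares, 1 array per group and dashed lines at 2-fold. In A549, 33 genes lie at or beyond -1 and CENPB alone lies above 0, while in HCT116 every gene but CENPI lies within 1.5-fold of 0.

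The size of the difference in A549 reached far into the low end of all genes. At least 4-fold lower were 6 members (14%), against 97 of all genes measured (0.455%). These were OIP5, CENPM, NUF2, SPC25, CENPI and CENPW, and with SGOL1 and HJURP they were 8 of the 100 lowest genes. At 3-fold or more, 21 members were lower, where 1.53% of all genes were, and at 1.5-fold or more 36 were, where 15.3% of all genes were. Just inside the 2-fold limit were CENPP (-1.04), CENPJ (-1.03) and DSN1 (-1.02), and just outside it was CENPO (-0.99). The 10 members that were not 2-fold lower were CENPB, CENPC, CENPO, CENPT, MIS12, NSL1, BUB3, MAD1L1, ZW10 and INCENP.

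The folds in A549 were smaller with normexp background correction and quantile normalization. There, 23 members were at least 2-fold lower, where 1.95% of all genes were, and 2 at least 4-fold, where 0.061% were. The 10 members that were no longer 2-fold lower were CENPH (-0.88), CENPI (-0.68), CENPJ (-0.87), CENPL (-0.36), CENPP (-0.75), CENPQ (-0.92), DSN1 (-0.91), SGOL2 (-0.80), SKA1 (-0.94) and SPC24 (-0.90). A further 7 stayed past 2-fold with a fold over 1.5 times smaller, namely OIP5 (-2.85), NUF2 (-1.60), SGOL1 (-1.27), AURKB (-1.15), CENPK (-1.09), SKA3 (-1.07) and TTK (-1.04). Under this setting too, all 33 lay below 0.

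**Figure D2:**
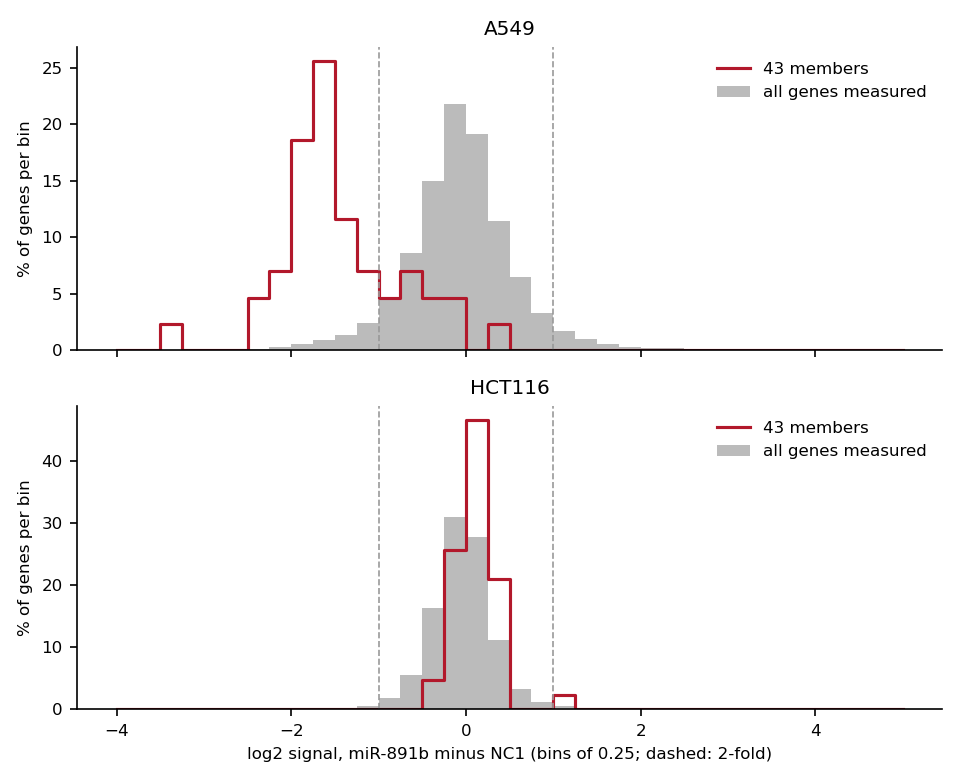
Share of genes per bin of 0.25 in log2 signal, miR-891b minus NC1, for all genes measured (grey bars) and the 43 members (red line), with A549 above, HCT116 below and dashed lines at 2-fold. In A549 the members centre on -1.57 and all genes on -0.06, while in HCT116 the medians are 0.12 and -0.04.

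Of the centromeric proteins and the factors that load CENPA, 3 of 4 were at least 2-fold lower in A549. OIP5, a subunit of the Mis18 complex that readies centromeres for new CENPA, was at 4.12 with NC1 and 3.86 with miR-891b in HCT116, and at 3.91 with NC1 and 0.46 with miR-891b in A549. The first 3 arrays lay close together and the last stood apart, 11-fold below its control (-3.45), which was the lowest value of all 21337 genes measured in A549 (rank 2 by the authors' values, and rank 18 with no filter on dim probes). Its probe lies at chr15:41601565-41601624 on hg19, minus strand. HJURP, the chaperone that deposits CENPA, was at 4.86 and 4.75 in HCT116 and at 5.47 and 3.48 in A549, NC1 first here and below. It was 3.97-fold lower in A549 (-1.99) and differed by -0.11 in HCT116. CENPA itself was at 1.60 and 1.75 in HCT116 and at 2.53 and 0.99 in A549. It was 2.92-fold lower in A549 (-1.54) and differed by 0.15 in HCT116. CENPB, which binds a sequence motif of the centromeric satellite repeats, was at 1.85 and 1.92 in HCT116 and at 2.07 and 2.54 in A549. It was the only member above its control in A549, by 0.46, short of 2-fold (with quantile normalization MIS12 was so too).

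In the constitutive inner kinetochore, 9 of 12 genes were at least 2-fold lower in A549, with a median of -1.56, against 0.15 in HCT116. The subcomplex of CENPH, CENPI, CENPK and CENPM, which helps to hold the inner layer together, was at least 2-fold lower throughout, though CENPH and CENPI were not with normexp. CENPM was at 5.38 with NC1 and 5.13 with miR-891b in HCT116, and at 5.28 with NC1 and 2.98 with miR-891b in A549. It was thus 4.91-fold lower in A549 (-2.29), with the other 3 arrays within a narrow band. CENPH was at 0.35 and 0.25 in HCT116 and at 0.86 and -0.75 in A549, a difference of -1.61 in A549. Its probe is printed 10 times on the array, and over those spots the A549 difference was -1.61 ± 0.09 (SD, n = 10 spots), which measures the array's own error and not that between cultures. CENPK was at -0.53 and -0.69 in HCT116 and at 1.74 and 0.04 in A549. It was lower with miR-891b in A549 (-1.69), where it still lay above both HCT116 arrays, and its A549 control lay 2.26 above the HCT116 control.

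CENPI was the one member past 2-fold in opposite directions in the lines. Its brightest probe, at chrX:100417917-100417976 on hg19, plus strand, was at -1.59 with NC1 and -0.48 with miR-891b in HCT116, and at -0.18 with NC1 and -2.23 with miR-891b in A549. That is 4.16-fold lower in A549 (-2.06), or -0.68 with normexp, and 1.11 higher in HCT116. On HCT116 miR-891b this spot lay in an area of stray signal, with 14.8% of nearby dim spots well above background. The other 2 CENPI probes differed by 0.10 and 0.09 in HCT116 and by -1.61 and -1.72 in A549. The HCT116 value past 2-fold was therefore seen with 1 of 3 probes, and an A549 signal at least 2-fold lower with all 3. Without the probes in stray areas, no member was 2-fold higher in HCT116.

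CENPW and CENPT are partners with a histone fold that reach from DNA to the outer layer. CENPW was at 3.93 with NC1 and 3.73 with miR-891b in HCT116, and at 4.20 with NC1 and 2.16 with miR-891b in A549, 4.12-fold lower in A549 (-2.04). CENPT was lower by 1.54-fold (-0.63). CENPC, the scaffold that ties CENPA nucleosomes to the outer kinetochore, was at 1.47 and 1.66 in HCT116 and at 1.1 and 0.62 in A549, a difference of -0.48. CENPN and CENPL, a pair of which CENPN reads the CENPA nucleosome, were lower by 3.45-fold (-1.79) and 2.87-fold (-1.52), the latter -0.36 with normexp. Of the CENPO, CENPP and CENPQ group, CENPQ was at -1.45, CENPP at -1.04 and CENPO at -0.99 relative to the A549 control. In HCT116 the inner kinetochore genes other than CENPI lay between -0.25 (CENPM) and 0.43 (CENPO).

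The outer kinetochore network of the KNL1, MIS12 and NDC80 complexes binds microtubules and carries the checkpoint proteins. Of its 8 members, 6 were 2-fold lower or more in A549, and the median was -1.53. The genes of the 4-subunit NDC80 complex, the main microtubule receptor, were all among these, though SPC24 was not with normexp. NUF2 was at 1.78 with NC1 and 1.98 with miR-891b in HCT116, and at 2.16 with NC1 and -0.10 with miR-891b in A549, 4.77-fold lower in A549 (-2.25). SPC25 was at 3.65 and 3.72 in HCT116 and at 2.99 and 0.82 in A549, 4.50-fold lower (-2.17). NDC80 was at 4.29 and 4.36 in HCT116 and at 2.96 and 1.06 in A549, 3.72-fold lower (-1.90). The HCT116 arrays differed by 0.19 for NUF2, 0.07 for SPC25 and 0.06 for NDC80, and the A549 miR-891b array was the lowest for all 3. SPC24, the other subunit, was 2.57-fold lower in A549 (-1.36).

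The MIS12 complex, which bridges the inner and outer layers, differed less. MIS12 was at 2.13 and 1.89 in HCT116 and at 2.74 and 2.67 in A549, a difference of -0.07 in A549 that turned to 0.03 with quantile normalization. DSN1 was 2.03-fold lower in A549 (-1.02) and NSL1 1.48-fold (-0.56). PMF1, the remaining subunit and no member, differed by -0.56. ZWINT, which binds KNL1 and helps bring the RZZ complex to kinetochores, was 3.26-fold lower (-1.71). None of the 8 passed 2-fold in HCT116, where they lay between -0.24 (MIS12) and 0.32 (SPC24).

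All 4 genes of microtubule coupling were at least 2-fold lower in A549, though with normexp SKA1 was at -0.94 and 3 of 4 were. SKA3, of the SKA complex that follows shortening microtubule ends, was at 2.32 with NC1 and 2.59 with miR-891b in HCT116, and at 1.42 with NC1 and -0.50 with miR-891b in A549. SKA1, of the same complex, was at 0.42 and 0.73 in HCT116 and at 0.92 and -0.97 in A549. They were 3.78-fold (-1.92) and 3.70-fold (-1.89) lower in A549. CENPF, a large microtubule-binding coiled-coil protein, was at 5.77 and 5.97 in HCT116 and at 6.01 and 4.45 in A549, 2.97-fold lower in A549 (-1.57). A second CENPF probe gave -1.86. CENPE, the kinesin that moves chromosomes to the spindle equator, was at 1.80 and 1.91 in HCT116 and at 2.45 and 0.92 in A549. Over its 10 spots the A549 difference was -1.53 ± 0.06 (SD, n = 10 spots) and the HCT116 difference 0.10 ± 0.08 (SD, n = 10 spots). Some of its spots lay in stray areas on both miR-891b arrays, with up to 16.1% of nearby dim spots lit in HCT116 and 13.5% in A549. The HCT116 differences of the 4 genes were all above 0, from 0.10 to 0.31.

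Among the spindle checkpoint genes, 5 of 8 were 2-fold lower or more in A549, and the median was -1.28. The kinase TTK, which starts checkpoint signalling, was at 2.0 with NC1 and 2.0 with miR-891b in HCT116, and at 1.66 with NC1 and -0.07 with miR-891b in A549, 3.31-fold lower in A549 (-1.73). BUB1B, a part of the complex that inhibits anaphase, was at 4.04 and 4.02 in HCT116 and at 3.10 and 1.47 in A549, 3.09-fold lower (-1.63). BUB1, a kinase that recruits checkpoint proteins and shugoshin, was at 3.51 and 3.63 in HCT116 and at 2.55 and 0.93 in A549, 3.07-fold lower (-1.62). For all 3 the HCT116 arrays nearly coincided, and the A549 control already lay below them. MAD2L1, the inhibitor made at unattached kinetochores, was 2.41-fold lower (-1.27), and ZWILCH, of the RZZ complex, 2.44-fold (-1.29). BUB3, which carries BUB1 and BUB1B to the kinetochore, was 1.47-fold lower (-0.56). ZW10, also of the RZZ complex, differed by -0.27. MAD1L1, the anchor of MAD2L1, was at 0.41 and 0.04 in HCT116 and at -0.90 and -1.12 in A549, a difference of -0.22 in A549 and -0.37 in HCT116. That was the lowest HCT116 value of any member.

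Of the chromosomal passenger complex and the shugoshins, 5 of 6 were at least 2-fold lower in A549, with a median of -1.69. AURKB, the kinase of the complex, was at 1.52 with NC1 and 1.62 with miR-891b in HCT116, and at 1.58 with NC1 and -0.35 with miR-891b in A549, 3.81-fold lower in A549 (-1.93). CDCA8 (borealin) was at 5.36 and 5.51 in HCT116 and at 4.52 and 2.75 in A549, 3.41-fold lower (-1.77). BIRC5 (survivin), which reads a histone mark at centromeres, was at 7.14 and 7.22 in HCT116 and at 6.22 and 4.74 in A549. Over its 10 spots it differed by -1.49 ± 0.03 (SD, n = 10 spots) in A549 and by 0.07 ± 0.05 (SD, n = 10 spots) in HCT116. INCENP, the scaffold of the complex, was the exception among its subunits, at 2.21 and 2.09 in HCT116 and at 1.44 and 0.65 in A549. It differed by -0.80 ± 0.06 (SD, n = 9 spots) in A549. SGOL1, a shugoshin that protects cohesin at centromeres, was at 0.70 and 1.0 in HCT116 and at 1.51 and -0.49 in A549. It was 3.997-fold lower in A549 (-1.999), just short of 4-fold. SGOL2 was 3.07-fold lower (-1.62). CENPJ has a CENP name but is a centriole protein, and was at 2.93 and 3.08 in HCT116 and at 3.03 and 2.0 in A549. It was 2.04-fold lower in A549 (-1.03), with its other 3 arrays within 0.15 of each other.

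The order of the members by difference showed little relation between the lines. Across the 43 genes, the A549 and HCT116 differences had a Pearson r of -0.02 and a Spearman rho of 0.04, with a Pearson r of 0.13 across the 18062 genes measured in both lines. These are descriptions across genes, which share arrays and are not independent. The members varied little in HCT116 (SD across genes 0.24, against 0.71 in A549), which leaves little order there to compare. The HCT116 value of CENPI past 2-fold was not repeated by its other probes. Of the 43 members, 29 were below 0 in A549 and above 0 in HCT116. Of all genes measured in each line, 55.6% were below 0 in A549 and 44.5% above 0 in HCT116. The A549 miR-891b array held the lowest of the 4 levels for 39 members, and the exceptions were CENPB, CENPK, MIS12 and NSL1. The share of all genes with both signs, or lowest on that array, was not counted.

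On the NC1 arrays, members lay on both sides of 0 for A549 minus HCT116. The median was 0.09, against -0.10 over all genes. Of the 43 members, 25 were higher in A549, where 45.0% of all genes were. At least 2-fold lower in A549 were 2 members, NDC80 (-1.33) and MAD1L1 (-1.31), where 16.2% of the 19218 genes measured on both arrays were. At least 2-fold higher were also 2, CENPK (2.26) and CENPI (1.42), where 11.1% were. By role, 10 of 12 inner kinetochore genes were higher in A549 (median 0.28). Of the checkpoint genes, 7 of 8 were lower (median -0.75), where 55.0% of all genes were. On the miR-891b arrays, 3 members (CENPB, CENPK and MIS12) were higher in A549, and the median was -1.54. The matching share and median over all genes were not computed for the miR-891b arrays. The slide and the scan coincided with the line, and the line and the slide cannot be told apart.

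**Figure D3:**
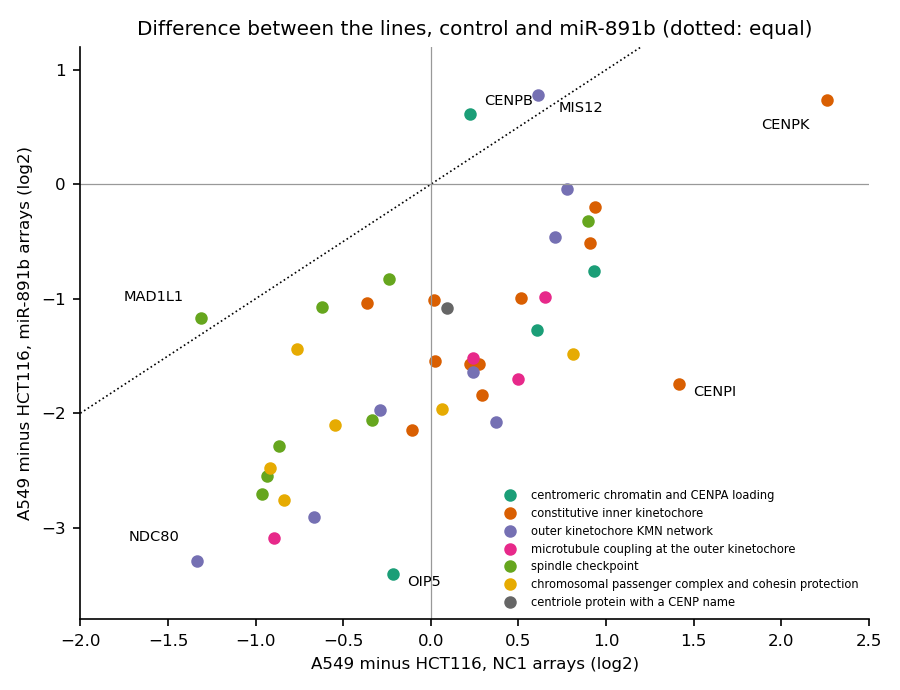
A549 minus HCT116 in log2 signal for each of the 43 genes on the NC1 arrays (horizontal axis) and on the miR-891b arrays (vertical axis), coloured by role, with a dotted line where both are equal. The genes spread on both sides of 0 on the NC1 arrays (median 0.09), and on the miR-891b arrays all but CENPB, CENPK and MIS12 lie below 0 (median -1.54). The share of all genes below 0 on the miR-891b arrays was not counted.

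An additive fit with limma, with the line and miR-891b as terms, used the lines as the only replication and had 1 residual degree of freedom. It called 0 of 22710 genes at an adjusted p under 0.05 (0%) and hence no member. At an unadjusted p under 0.05 were 1214 genes (5.35%) and 0 members. The smallest unadjusted p of a member was 0.0791 for CENPM, lower after miR-891b in 2 of 2 lines (-2.29 in A549, -0.25 in HCT116), with an adjusted p of 0.793 from limma. The fit averages the lines, and a gene that differs in one line has part of its difference counted as error.

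The further probes gave a reading of the same RNA at other places of the transcripts. More than 1 probe was present for 11 members, with 14 further probes. In A549, 13 were measured, all 13 below 0 and 10 of them at least 2-fold lower. In HCT116, none of the 13 measured passed 2-fold. By the second probe, 5.41% of the 4917 genes measured in A549 were at least 2-fold lower. Of 4369 genes measured by it in HCT116, 30 were at least 2-fold lower and 65 at least 2-fold higher. The share of all further probes below 0 was not counted. A second CENPM probe gave -2.31 beside the first's -2.29, and another gave -0.93. The further CENPN probes gave -1.28 and -1.06 beside -1.79. CENPM, CENPP and CENPO had probes on both sides of the 2-fold limit. For CENPP the first gave -1.04 and the second -0.09, and for CENPO the second (-1.38) passed 2-fold and the first (-0.99) did not. Across 287 probes with repeated spots, the median SD of the A549 difference was 0.071, which measures print and scan error within one probe and not how far different probes of a gene may differ.

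**Figure D4:**
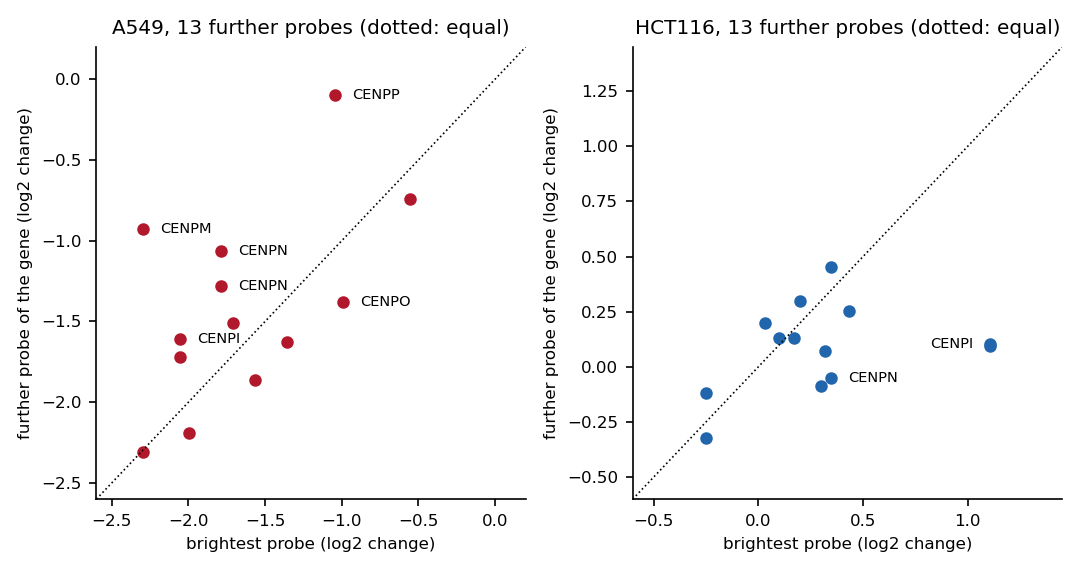
Log2 signal of miR-891b minus NC1 by the brightest probe (horizontal axis) and by each further probe of the same gene (vertical axis), for A549 on the left and HCT116 on the right, 13 probes each, with a dotted line where both are equal. All A549 points lie below 0, with CENPP at -0.09 by its second probe, and in HCT116 CENPI reads 1.11 by the brightest probe and 0.10 and 0.09 by the others.

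Of 21 other genes of the kinetochore and checkpoint, 16 were at least 2-fold lower in A549, with a median of -1.27, and none passed 2-fold in HCT116 (median 0.06). CENPU, the partner of CENPQ, was at -2.18 relative to its control, ITGB3BP (CENPR) at -2.04, the centrosomal kinase NEK2 at -1.91 and CDC20, the target of the checkpoint, at -1.85. The 5 that were not 2-fold lower were CENPV, PMF1, MAD2L1BP, CLASP1 and CLASP2. Genes of DNA replication, which act in an earlier phase of the cell cycle, were also lower, 24 of 24 by 2-fold or more in A549, with a median of -1.62. Among genes of mitotic entry and exit, 24 of 27 were at least 2-fold lower, with a median of -1.70. Their HCT116 medians were -0.07 and 0.08. Over all genes measured in A549, 5.57% were at least 2-fold lower. The lower signal was thus also seen in these lists, which were chosen with earlier results of these data known. CDC20 is counted both among the other kinetochore and checkpoint genes and among those of mitotic entry and exit.

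Promoters were set beside these values because many mitotic genes carry a cell cycle homology region (CHR), a short element bound by the MuvB complexes, which repress cell cycle genes in resting cells and activate them towards mitosis. RefSeq windows (GRCh38.p14) of 300 bases around the start, 250 before it and 50 after, were found for 37 of 43 members, 43 windows in all. The letters TTTGAA, on either strand, were in 18 of 43 member windows (41.9%), against 15.2% of all 35116 windows. Within 50 bases of the start, they were in 15 of 43 (34.9%), against 4.62%. With the variant TTCGAA added, 22 of 43 held a match (51.2%), against 16.4%. The box CCAAT, on either strand, was in 27 of 43 (62.8%), against 34.6%. Each motif was searched on its own, so that matches of different motifs may share bases, and a match is a description of the sequence, not evidence of binding.

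The stretches from 100 bases before to 50 after the start are shown for 6 members, 5′ to 3′ on the gene's strand, with the CHR matches in capitals (CCAAT is left in lower case) and positions counted from the start as base 1. CENPA (chr2:26785956-26786105, plus strand, match from base -18), BUB1B (chr15:40160969-40161118, plus strand, from base -23) and CDCA8 (chr1:37692416-37692565, plus strand, from base -23) show the motif close to the start. SKA3 (chr13:21176503-21176652, minus strand, from base -3) shows it on the opposite strand, as TTCAAA. OIP5 (chr15:41332542-41332691, minus strand), the lowest member in A549, has the variant from base 2. CENPB (chr20:3786691-3786840, minus strand), the only member above its control in A549, has no CHR match.
CENPA: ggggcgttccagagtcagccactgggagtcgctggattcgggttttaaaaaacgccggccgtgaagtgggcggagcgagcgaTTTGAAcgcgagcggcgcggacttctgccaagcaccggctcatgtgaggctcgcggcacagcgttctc
BUB1B: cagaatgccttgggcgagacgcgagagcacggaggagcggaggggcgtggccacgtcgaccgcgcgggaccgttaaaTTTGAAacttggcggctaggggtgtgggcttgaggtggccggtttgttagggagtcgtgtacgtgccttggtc
CDCA8: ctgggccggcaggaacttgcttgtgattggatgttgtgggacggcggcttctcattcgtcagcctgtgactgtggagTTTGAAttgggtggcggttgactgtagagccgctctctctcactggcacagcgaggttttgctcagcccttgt
SKA3: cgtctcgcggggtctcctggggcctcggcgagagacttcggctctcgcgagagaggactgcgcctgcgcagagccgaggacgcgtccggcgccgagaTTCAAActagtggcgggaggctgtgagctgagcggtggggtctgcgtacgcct
OIP5: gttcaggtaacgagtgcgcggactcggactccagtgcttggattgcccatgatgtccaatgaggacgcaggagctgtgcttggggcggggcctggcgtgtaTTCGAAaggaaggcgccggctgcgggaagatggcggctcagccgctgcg
CENPB: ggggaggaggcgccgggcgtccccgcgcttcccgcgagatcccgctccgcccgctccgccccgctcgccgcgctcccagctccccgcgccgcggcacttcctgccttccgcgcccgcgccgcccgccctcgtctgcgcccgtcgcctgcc

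Within the members, the share at least 2-fold lower in A549 was set beside the motif, and whether the 2 are related was not tested. Of 17 members with TTTGAA, 13 were at least 2-fold lower in A549 (76.5%, median -1.71), and of 20 with a window but no match, 15 were (75%, median -1.40). Those without TTTGAA include BUB1, CENPW, OIP5 and SGOL1, which hold the variant and were each at least 2-fold lower. With the variant added, the counts were 17 of 21 (81.0%) and 11 of 16 (68.8%). Among all genes measured in A549 with a window, 172 of 1700 with TTTGAA were 2-fold lower (10.1%) and 519 of 10218 without it (5.08%). In HCT116 these shares were 0.913% and 0.703%. Of the 6 members at least 4-fold lower, NUF2 (from base 17) and SPC25 (from base -3) held TTTGAA, OIP5 (base 2) and CENPW (base 18) held the variant, CENPI held neither and CENPM had no window. Of the members that were not 2-fold lower, CENPO held TTTGAA from base 37, INCENP from base -10, CENPC from base -90 and ZW10 from base -224.

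**Figure D5:**
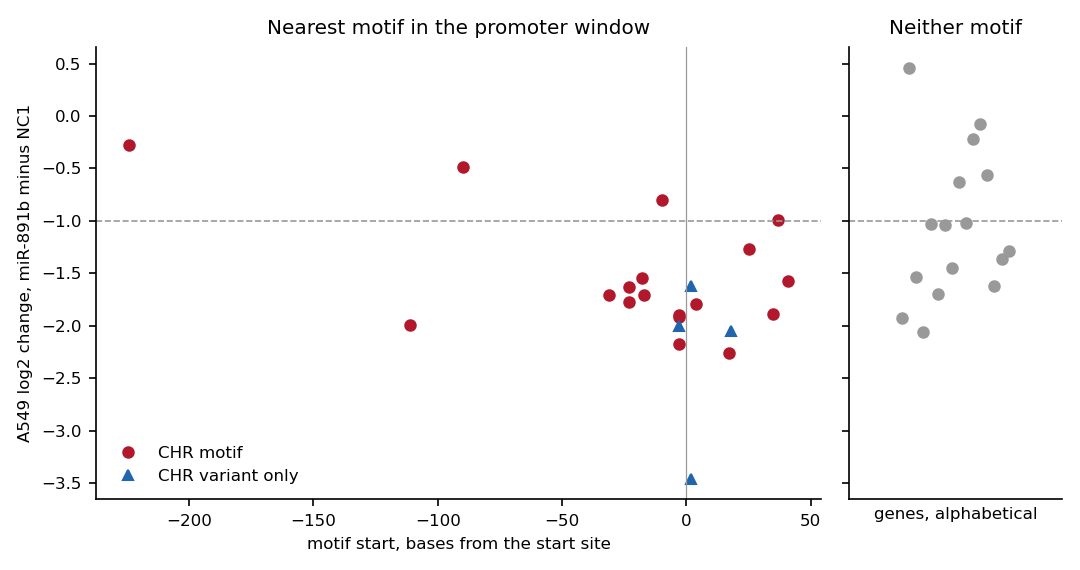
A549 log2 signal, miR-891b minus NC1, for member promoter windows by the position of the nearest CHR motif (red circles) or, where there is none, of its variant (blue triangles), with genes that have neither in alphabetical order on the right and a dashed line at 2-fold. Most matches lie within 50 bases of the start, and genes with and without a match both reach below -1, 17 of 21 and 11 of 16.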

How the data were processed

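Total RNA (100 ng) of 4 transfected samples was labelled with Cy3, per the labels, and 1 array was hybridised per group. The deposited scanner files hold intensity values, quantified with Agilent Feature Extraction 11.5.1.1, per the file headers and the submitters' processing notes. Background and spatial trends were removed within each array there, and probe coordinates are on hg19. The authors' deposited log2 table does not say how its values were made. Set beside the scanner files, it matched log2 processed signals scaled to the 75th percentile of each array, with a median absolute difference of at most 0.0069 and a largest one of 0.109. It served as an alternative.

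Outlier spots were left out, log2 processed signals were averaged over a probe's spots, and each array's 75th percentile over gene probes was subtracted. A gene was taken as measured in a line where the brightest probe stood well above background on both of that line's arrays. All genes were processed together, and calls were made at 2-fold. The additive fit used limma 3.58.1 (lmFit, eBayes, Benjamini-Hochberg) in R 4.3.3, on genes well above background on at least 2 of 4 arrays, and was tested on simulated data. Other steps used Python 3.11.15, numpy 2.4.6 and pandas 2.3.3. The members, the comparison lists and the motifs were chosen with earlier results of these data known. All members could be named, and values on every array were given at least for the 3 members with the largest A549 difference of each role. Symbols are those of the array design and can be old (SGOL1 and SGOL2 are now SGO1 and SGO2). Alternatives were quantile normalization with and without normexp (offset 50), median scaling, the authors' values, other filters, probes and thresholds, and removal of probes in stray areas (10 rows and columns, 10%). The number of arrays limits the precision.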

Additional observations from a re-analysis of the deposited data

Results flagged for a closer look

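The median difference of the 43 members was -1.57 in A549 and 0.12 in HCT116, so the lines stood on opposite sides of 0, and this difference between the lines was not tested. CENPI, by its brightest probe, differed by -2.06 in A549 and by 1.11 in HCT116, which was also not tested, and the spot lay in an area of stray signal on HCT116 miR-891b. Among 308 negative control spots, which match no transcript, 2 on A549 miR-891b and 11 on HCT116 miR-891b were well above background, against 0 on each NC1 array.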

How the results depend on the processing

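No paired analysis was possible because each group had 1 array, other than the additive fit with the line as a block, which called 0 genes. Of the 33 members at least 2-fold lower in A549, 23 stayed so in every alternative that measured them (up to 8 per gene, the second probe left out), and no direction of a called result reversed. Some alternatives could change little. The filters on dim probes left every member as it was, since all 43 were well above background on each array. The authors' values matched the main scaling, and the mean over probes could change only the 11 members with more than 1 probe. The count was 21 at 3-fold (1.53% of all genes) and 36 at 1.5-fold (15.3%). At 2-fold it was 23 with normexp and quantile normalization (1.95% of all genes) and 34 with the authors' values (5.65%). It was 30 with quantile normalization (4.80%), median scaling (4.79%) or without stray areas (5.53%, 39 members left). By the second probe it was 8 of 10 (5.41%). With normexp the A549 median was -1.04. The single member 2-fold higher in HCT116 became 0 with normexp, by the second probe, without stray areas, by the mean over probes and at 3-fold. The control-array difference between lines was 0.16 with quantile normalization, 0.18 with median scaling and 0.33 by the second probe. Over all genes, 2-fold lower calls in A549 were 1189, against 416 with normexp and 3081 with no filter on dim probes, and in HCT116 161, against 13 and 1434. With no filter the HCT116 median over all genes was 0.20, above the members' 0.12. The causes of these shifts were not tested. The members' signal was above background on every array, but each group had 1 array, the line and the slide cannot be told apart, and the folds moved with the background correction.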
